A study of Mus musculus with 2 samples.

Results

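Voltage-gated calcium channels were described in mouse heart at embryonic day 15.5 through 10 genes that encode their subunits, of 43346 genes in the deposited tables. The genes were picked by symbol under a rule that uses no measured value, though with earlier results of these data known: the L-type pores Cacna1c, Cacna1d and Cacna1s, the T-type pores Cacna1g and Cacna1h, the beta subunits Cacnb1, Cacnb2 and Cacnb3, and the alpha2delta subunits Cacna2d1 and Cacna2d2. All 10 were found in both gene tables. RNA was measured by sequencing in 2 libraries of 1 group, each from a separate pool of hearts of healthy embryos of strain B6NCrl, males and females together and with no treatment or engineered allele named. Replicate 1 held hearts of 78 embryos and replicate 2 hearts of 62. RNA longer than 200 nt was used at 10 ng a library, with spike-in RNA added, and the linked manuals include that of a low-input kit (SMARTer Ultra Low). The design holds no contrast between conditions, so levels are given as TPM (reads per effective length, scaled to the same total in each library) with the SD between the pools. A sign-flip test over 2 libraries cannot give a p below 0.5, so none was run.

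A voltage-gated calcium channel is built around a pore-forming alpha1 subunit that opens when the membrane depolarises. The L-type pores pass the long-lasting current that triggers contraction of heart muscle, and the T-type pores open at more negative voltages and contribute to pacemaking in the fetal heart and the conduction system. A beta subunit inside the cell binds the loop between the first and second domains of an L-type pore, at the alpha interaction domain, and promotes its transport to the membrane. An alpha2delta subunit attaches from the outside and raises the number of channels at the surface.

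The heart label held against its markers. All 8 cardiomyocyte markers reached 1 TPM in each library, and their summed level was 26888 TPM in replicate 1 and 23462 TPM in replicate 2, where 2 of the 8 were higher. Replicate 2 held more RNA of markers of other tissues: the summed TPM was 12.2 and 75.3 for neuron and chromaffin genes (higher in replicate 2 for 10 of 10), 11.6 and 115 for thymus and early T cell genes (7 of 8), 153 and 352 for lung epithelium genes (6 of 6) and 45.1 and 206 for liver genes (6 of 6). None of these lists had a marker at a count of 0 in either library. In bulk RNA of a pool, fewer cells of a type and less RNA per cell cannot be told apart. The tables held 41883313 and 39697992 expected counts, and 1 read on an effective length of 1 kilobase was worth 0.0308 and 0.0345 TPM.

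Cacna1c, the gene whose transcript make-up the levels turn on, is shown first by sequence. Most of its TPM lay in Cacna1c-218, a transcript of 954 bases with no coding frame annotated, which ends in an exon of 209 bases found in no other transcript. That exon lies at chr6:118946163-118946371 of GRCm38 on the minus strand, inside the intron between exons 3 and 4 of the leading coding transcript Cacna1c-207. The letters are from GENCODE M21, and capitals mark the only copy of the hexamer AATAAA, which starts 20 bases before the end.
Cacna1c-218 last exon: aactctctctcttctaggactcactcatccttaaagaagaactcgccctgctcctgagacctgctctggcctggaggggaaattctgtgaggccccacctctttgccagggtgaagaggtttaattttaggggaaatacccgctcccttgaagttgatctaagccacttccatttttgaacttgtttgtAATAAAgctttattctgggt

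An AATAAA in the last 40 bases was present in 16.4% of all annotated processed transcripts and in 39.3% of protein-coding transcripts of M21. The RefSeq promoter table held 14 windows for 8 of the 10 genes, all but Cacna1g and Cacna1h. The pair of windows that follow are the 250 bases before the 2 start sites of Cacna1c that carried the most coding TPM, from that table (GRCm38.p6, minus strand). The upstream start is known as the cardiac one and the downstream start as that of smooth muscle and brain. The upstream window is chr6:119196410-119196659 and the downstream window is chr6:119108496-119108745, and capitals mark GGGCGG on either strand.
Cacna1c upstream: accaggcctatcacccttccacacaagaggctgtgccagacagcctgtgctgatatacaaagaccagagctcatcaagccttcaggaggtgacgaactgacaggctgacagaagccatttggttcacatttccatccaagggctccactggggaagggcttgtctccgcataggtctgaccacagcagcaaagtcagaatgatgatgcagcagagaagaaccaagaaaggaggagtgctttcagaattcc
Cacna1c downstream: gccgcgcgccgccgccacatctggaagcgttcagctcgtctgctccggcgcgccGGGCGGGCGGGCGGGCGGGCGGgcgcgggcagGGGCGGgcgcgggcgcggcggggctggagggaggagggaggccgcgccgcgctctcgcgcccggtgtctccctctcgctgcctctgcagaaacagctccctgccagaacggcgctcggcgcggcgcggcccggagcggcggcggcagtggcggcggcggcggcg

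The upstream window was 51.6% G or C with 2 CpG dinucleotides. The downstream window was 82.8% G or C with 48 CpG and 6 GC boxes, some of which overlap each other. Over all 32851 windows of the same length in the table, the median was 52.4% with 6 CpG, and 32.7% held GGGCGG on either strand. On both strands, no TATA box (TATAAA), no GATA site (AGATAA), no CArG box and no MEF2 site lay in either window. Of all windows, 12.4% held the TATA box, 9.99% the GATA site, 1.47% a CArG box and 2.92% a MEF2 site, and a MEF2 site or CArG box can overlap a TATA box.

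The 3 L-type pores are compared by the 54 bases that encode the alpha interaction domain, where beta subunits bind, read from M21 transcripts. Capitals are the codons of the 9 positions by which the domain was searched.
Cacna1c: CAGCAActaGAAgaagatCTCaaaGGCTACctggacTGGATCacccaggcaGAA
Cacna1d: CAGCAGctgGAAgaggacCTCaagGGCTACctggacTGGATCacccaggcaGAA
Cacna1s: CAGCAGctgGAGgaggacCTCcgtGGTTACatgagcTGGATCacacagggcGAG

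Cacna1c and Cacna1d were identical at 49 of 54 bases (90.7%), Cacna1d and Cacna1s at 42 (77.8%) and Cacna1c and Cacna1s at 38 (70.4%). Neither T-type gene had the domain in any transcript, among 16 of Cacna1g and 10 of Cacna1h, and T-type pores are known to work without a beta subunit. In Cacna1c, 19 of 23 transcripts had it, and they held 13.7% of the gene's TPM in replicate 1 and 18.4% in replicate 2. Cacna1c-218 was not among them.

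Among the L-type pores, Cacna1c, the main pore of working heart muscle (ENSMUSG00000051331, chr6:118587240-119196418, minus strand, mm10), stood at 53.9 TPM in replicate 1 and 42.5 TPM in replicate 2, a mean of 48.2 ± 8.11 TPM (SD, n = 2). The counts were 4172 and 3505, with exact 95% Poisson intervals of 4046 to 4301 and 3390 to 3623. It was the highest of the 10 genes in both libraries. Summed over its 18 protein-coding transcripts, its level was 7.25 and 7.71 TPM, or 7.48 ± 0.325 TPM. The level over all transcripts was thus lower in replicate 2, and that over coding transcripts was slightly higher there.

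Cacna1c-218 stood at 44.4 TPM in replicate 1 and 33.6 TPM in replicate 2, which was 82.4% and 79.1% of the gene's TPM. The authors' deposited intervals for it were 41.1 to 46.2 TPM and 30.6 to 35.3 TPM, and its estimated counts were 1234 and 832. It shares 745 of its 954 bases (78.1%), its first 3 exons, with coding transcripts, so only reads that reach its last exon are its own. Cacna1c-207, the leading coding transcript at 13162 bases, stood at 5.42 and 5.62 TPM. The second value is above its deposited interval of 4.90 to 5.57 TPM, so the split between transcripts is an estimate. Coding transcripts held 13.5% and 18.2% of the TPM of Cacna1c (15.8 ± 3.32%, n = 2). By expected counts, which do not divide by length, they held 65.3% and 73.2%.

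**Figure D1:**
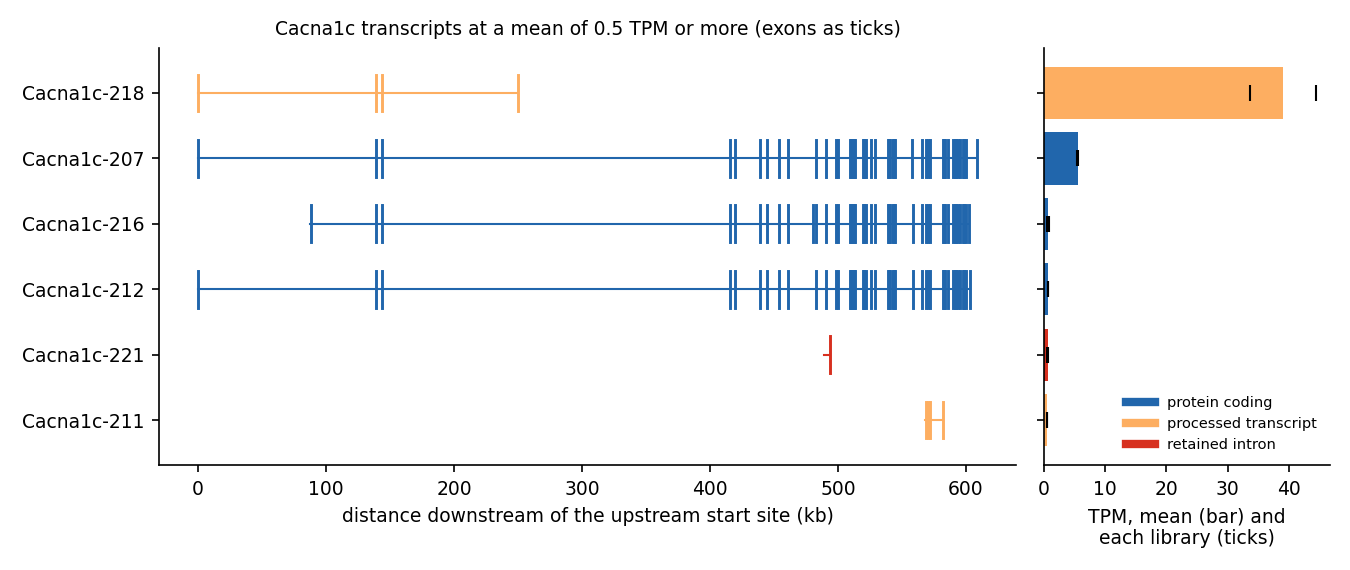
Cacna1c transcripts with a mean of 0.5 TPM or more: exons along the gene (horizontal axis, distance downstream of the upstream start site in kilobases) and TPM (right, bars for the mean of 2 libraries, ticks for each library). The first 3 exons of Cacna1c-218 lie within exons of coding transcripts from the upstream start. Cacna1c-218 ends in an intron and stands at 44.4 and 33.6 TPM.

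The coding TPM of Cacna1c came mostly from the upstream start, which carried 83.3% in replicate 1 and 81.1% in replicate 2 (82.2 ± 1.59%). Transcripts from the GC-rich downstream start carried 10.2% and 14.5%. A start inside the gene carried 1.66% and 1.30%, and 4.83% and 3.11% lay in a coding transcript with no RefSeq start within 600 bases. The order of the upstream and downstream starts was the same in both libraries, and Cacna1c-218 also begins at the upstream start. Smooth muscle markers were present in both pools, at a summed 1587 and 1623 TPM. Most of that was Acta2 (1036 and 1065 TPM) and Des (346 and 307 TPM), which fetal heart muscle also makes, and the more specific Myh11 was at 3.83 and 10.6 TPM.

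Cacna1d, an L-type pore known from the sinoatrial node and atrium (ENSMUSG00000015968, chr14:30039939-30491455, minus strand), stood at 1.78 TPM in replicate 1 and 1.46 TPM in replicate 2 (1.62 ± 0.226, n = 2), on counts of 499 and 366. Both of its transcripts in the tables are coding. Cacna1d-202 held 87.0% and 88.6% of its TPM, and Cacna1d-201 the remaining 13.0% and 11.4%. The window before the start of Cacna1d-202 was 39.6% G or C with 3 TATA boxes, and that before the start of Cacna1d-201 was 86.4% with 50 CpG and 5 GC boxes. The start with the less GC-rich window thus carried most of the coding TPM of Cacna1d in both libraries. In Cacna1c the same held between the upstream and downstream starts, but the window of the start inside the gene was 50.4% G or C, the lowest of its 3, and that start carried the least of the 3. The other genes with several starts went either way: in Cacnb3 the start with the less GC-rich window (56.0%) carried a mean of 86.0%, whereas in Cacnb1 (73.2%) and Cacnb2 (73.2%) the start with the more GC-rich one carried 87.7% and 82.5%.

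Cacna1s, the pore and voltage sensor of skeletal muscle (ENSMUSG00000026407, chr1:136052750-136119822, plus strand), was the lowest of the 10 genes at 0.24 TPM in replicate 1 and 0.46 TPM in replicate 2 (0.35 ± 0.156, n = 2), on 12 and 36 rounded counts. It was the only one of them under 1 TPM. Its leading transcript, Cacna1s-203, is not coding and held 80.9% and 42.2% of the TPM, and its coding transcripts summed to 0.04 and 0.19 TPM. Cacna1s-206, a coding transcript, held 16.4% and 24.3%. Skeletal muscle markers were present in both libraries at a summed level of 182 and 188 TPM, of which 152 and 147 TPM were Acta1, an actin the fetal heart also makes. Of the 10 markers, 6 reached 1 TPM in each library, against 58.2% of protein-coding genes. Besides Acta1 these were Tnni2 (13.0 and 12.9 TPM), Mylpf (8.51 and 11.7 TPM), Tnnt3 (3.96 and 3.77 TPM), Actn3 and Myh8. Myh3, Myod1, Myog and Ryr1 did not reach it in both. Ryr1, the skeletal muscle release channel that Cacna1s is known to couple to, was at 0.05 and 0.10 TPM.

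Cacna1c exceeded Cacna1d by 4.85 and 4.77 on the log2 scale of TPM plus 0.1 (4.81 ± 0.053), a 28.0-fold ratio. On coding transcripts the difference was 1.97 and 2.31 (2.14 ± 0.25), a 4.41-fold ratio. Cacna1c remained above Cacna1d in both libraries on either scale. Cacna1c exceeded Cacna1s by 6.78 ± 0.75 over all transcripts and 5.23 ± 0.68 over coding ones, a scale that understates the difference at so low a level.

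The T-type pores were close to each other over all transcripts and apart over coding ones. Cacna1g (ENSMUSG00000020866, chr11:94408391-94474198, minus strand), a T-type pore of pacemaker tissue, stood at 5.37 TPM in replicate 1 and 5.34 TPM in replicate 2 (5.36 ± 0.021, n = 2), on 523 and 489 counts. Cacna1h (ENSMUSG00000024112, chr17:25374285-25433783, minus strand), the T-type pore known as prominent in embryonic heart muscle, stood at 4.58 and 5.36 TPM (4.97 ± 0.552), on 823 and 908 counts. The log2 ratio of Cacna1g over Cacna1h was 0.22 and -0.01 over all transcripts, which changed sign between the libraries. Over coding transcripts it was -0.84 and -1.11 (-0.97 ± 0.19), with Cacna1h 1.96-fold higher. Cacna1h exceeded Cacna1g in coding TPM in both libraries, at 3.30 and 4.14 TPM against 1.80 and 1.87 TPM. Pacemaker and conduction markers summed to 23.5 and 26.9 TPM.

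Coding transcripts held 33.6% and 35.1% of the TPM of Cacna1g but 88.7% of its expected counts (mean of both libraries). Most of the rest was in 2 short transcripts, Cacna1g-213 (434 bases) with 39.0% and 29.8% of the TPM and Cacna1g-215 (749 bases) with 19.6% and 24.2%. These rested on 15 to 24 estimated counts each. Of the coding transcripts, Cacna1g-203 held 23.1% and 9.93%, and Cacna1g-205 held 10.5% and 18.2%. The level of Cacna1g-203 in replicate 1 (1.24 TPM) is above its deposited interval of 0 to 0.89 TPM, and that of Cacna1g-205 in replicate 2 (0.97 TPM) is above its upper bound of 0.94 TPM. The order of these coding transcripts turned between the libraries, so the tables do not settle which was the higher. In Cacna1h, the coding transcript Cacna1h-205 held 62.7% and 66.9% and the retained-intron transcript Cacna1h-203 held 24.8% and 22.8%. Cacna1h-205, at 2.87 and 3.59 TPM, was also above its deposited upper bounds of 2.85 and 3.54 TPM. The mean coding share of Cacna1h was 74.6%, and 66.5% from posterior mean TPM.

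The order of the beta subunits depended on which transcripts were summed. Cacnb2, known as the main beta subunit of heart muscle (ENSMUSG00000057914, chr2:14603088-14987908, plus strand), stood at 10.1 TPM in replicate 1 and 8.26 TPM in replicate 2 (9.17 ± 1.28, n = 2), on 838 and 608 counts. Cacnb3, known mainly from brain and smooth muscle (ENSMUSG00000003352, chr15:98630840-98644529, plus strand), stood at 6.51 and 9.60 TPM (8.06 ± 2.19). Cacnb1, the beta subunit of the skeletal muscle channel (ENSMUSG00000020882, chr11:98001508-98023034, minus strand), stood at 4.76 and 6.93 TPM (5.85 ± 1.53). Cacnb2 was the higher of Cacnb2 and Cacnb3 in replicate 1 and the lower in replicate 2.

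Over coding transcripts Cacnb2 was the lowest of the beta genes in both libraries, at 1.12 and 1.36 TPM. Cacnb1 stood at 4.00 and 5.73 coding TPM and Cacnb3 at 6.51 and 9.60. Only coding transcripts of Cacnb3 were quantified, against 5 coding among 16 of Cacnb2, so reads of Cacnb3 could not fall to noncoding ones. The log2 ratio of Cacnb2 over Cacnb1 was 0.66 ± 0.58 over all transcripts and -1.87 ± 0.18 over coding ones, where Cacnb1 was 3.66-fold higher. Cacnb2 over Cacnb3 was 0.20 ± 0.59 and -2.58 ± 0.21, where Cacnb3 was 6.0-fold higher. The coding differences exceeded the spread between libraries, and the ratio to Cacnb1 changed sign between the scales.

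**Figure D2:**
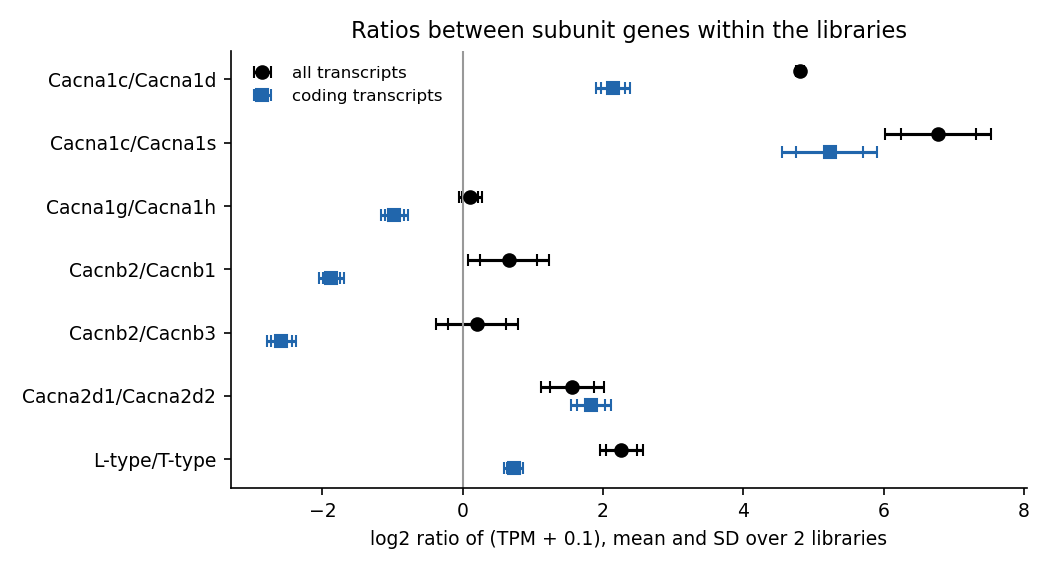
Log2 ratios between subunit genes within a library, from TPM plus 0.1 (horizontal axis), over all transcripts (circles) and over coding transcripts (squares). Bars are the SD over 2 libraries and ticks the single libraries. Cacnb2 over Cacnb1 falls on opposite sides of 0 on the 2 scales.

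Retained-intron transcripts held 84.2% and 81.3% of the TPM of Cacnb2. Cacnb2-204, of 3457 bases, held 40.02% and 40.7%, and 380 of its bases (10.99%) lie in coding transcripts. Cacnb2-208 held 16.5% and 16.7% and Cacnb2-215 held 13.0% and 9.20%. The leading coding transcript, Cacnb2-203, held 10.3% and 11.9%, at 1.04 and 0.98 TPM. In counts, coding transcripts held a mean of 17.2% of Cacnb2, so its share stayed low without division by length, unlike that of Cacna1c. The opposite-strand gene Gm10849 covers 618 bases of Cacnb2 exons and was at 3.99 and 3.14 TPM. Use of strand in the counting is a point not given in the sources used here, and the part of Gm10849 in the Cacnb2 values was not tested.

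Both quantified transcripts of Cacnb3 are coding: Cacnb3-202 held 85.3% and 86.6% and Cacnb3-201 held 14.7% and 13.4%. In Cacnb1, coding transcripts held 83.8% and 82.6%, led by Cacnb1-202 with 57.2% and 50.7%. Cacnb1-201 held 12.3% and 22.9%, and Cacnb1-204 held 14.2% and 6.33%.

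Among the alpha2delta genes, Cacna2d1, the main form in heart and skeletal muscle and a binding site of gabapentin (ENSMUSG00000040118, chr5:15934691-16374511, plus strand), stood at 8.21 TPM in replicate 1 and 7.22 TPM in replicate 2 (7.72 ± 0.70, n = 2), on 1776 and 1373 counts. Cacna2d2, which also binds gabapentin and is known mostly from brain (ENSMUSG00000010066, chr9:107399612-107529343, plus strand), stood at 2.16 and 2.98 TPM (2.57 ± 0.58), on 349 and 363 counts. Cacna2d1 exceeded Cacna2d2 in both libraries, by 1.88 and 1.25 on the log2 scale (1.56 ± 0.45), a 2.96-fold ratio, and by 1.83 ± 0.28 over coding transcripts. All quantified transcripts of Cacna2d1 are coding. Its TPM was split mainly among Cacna2d1-206 (57.2% and 61.2%), Cacna2d1-202 (26.4% and 17.0%) and Cacna2d1-204 (16.4% and 18.9%). Cacna2d2-208 led its gene with 72.3% and 60.6%. The retained-intron transcript Cacna2d2-206 held 0 and 21.6%, on 0 and 9 estimated counts.

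Of the 10 genes, 9 reached 1 TPM in each library, on all transcripts and on coding transcripts alike. Of 21474 protein-coding genes, 12491 (58.2%) did so over all transcripts, and the median over all 21474 was 3.62 TPM. The median of the 10 was 5.60 TPM over all transcripts and 2.91 TPM over their coding transcripts. On coding transcripts, no median or detected share over all genes was computed. In the order of all-transcript TPM, Cacna1c stood above Cacnb2 beyond the spread (same order in both libraries and a mean log2 difference above its SD). From Cacnb2 through Cacnb3, Cacna2d1, Cacnb1 and Cacna1g to Cacna1h, no neighbours differed by this measure. Cacna1h over Cacna2d2, Cacna2d2 over Cacna1d, and Cacna1d over Cacna1s did. In coding TPM, Cacnb3 (8.06), Cacna2d1 (7.72) and Cacna1c (7.48) did not differ beyond their spread, nor did Cacna1g (1.84) from Cacna1d (1.62) or Cacna1d from Cacnb2 (1.24). The lead of Cacna1c was thus seen on all transcripts and not on coding ones.

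**Figure D3:**
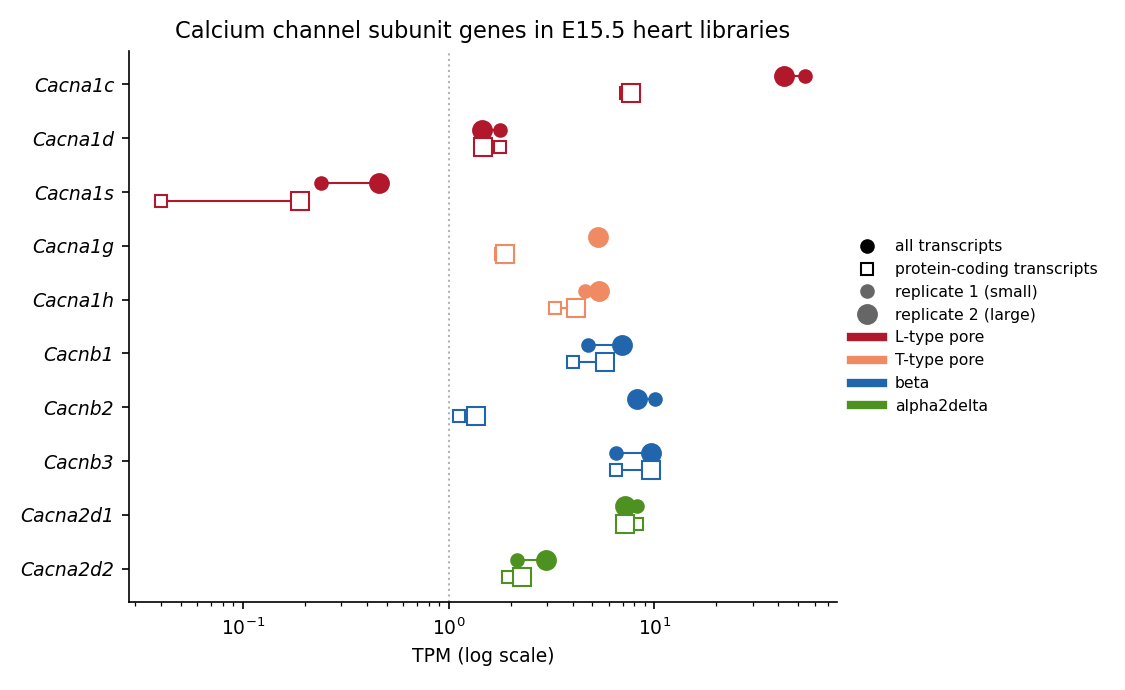
TPM of the 10 subunit genes (log axis) in each library, over all transcripts (circles) and over protein-coding transcripts (squares), small symbols for replicate 1 and large for replicate 2, with a dotted line at 1 TPM. Cacna1c stands highest over all transcripts and level with Cacnb3 and Cacna2d1 over coding ones, and Cacna1s lies below the line.

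Summed by class, L-type pores reached 56.0 and 44.4 TPM over all transcripts and T-type pores 9.95 and 10.7 TPM. L-type genes held 84.9% and 80.6% of the pore TPM of these 5 genes. Over coding transcripts they held 64.0% and 60.9%, and the log2 ratio of L-type to T-type was 0.82 and 0.63, against 2.48 and 2.04 over all transcripts. L-type pores remained above T-type in both libraries on either scale. Beta subunits summed to 23.1 ± 2.44 TPM, or 14.2 ± 3.58 coding, and alpha2delta subunits to 10.3 ± 0.12 TPM, or 9.82 ± 0.47 coding.

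Coding transcripts held over 50% of the TPM in both libraries for 6 of the 10 genes, and over 90% in 3, Cacna1d, Cacnb3 and Cacna2d1. Those 3 had no noncoding transcript quantified, so their share was fixed at 100% by the annotation. By expected counts, which do not divide by length, coding transcripts held over 50% for 9, all but Cacnb2. By TPM, 8.03% of detected protein-coding genes had a coding share under 50% and 1.95% under 20%, and the median was 98.2%. By expected counts, these values over all detected genes were not computed. Cacna1c (15.8%) and Cacnb2 (13.8%) were under 20% by TPM. Of 98 transcripts of the 10 genes in the tables, 35 were at 0 TPM in both libraries and 19 had a mean of 1 TPM or more. The same shares over the transcripts of all genes were not computed. All 98 matched GENCODE M21 by identifier, and 8 differed in length from it.

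**Figure D4:**
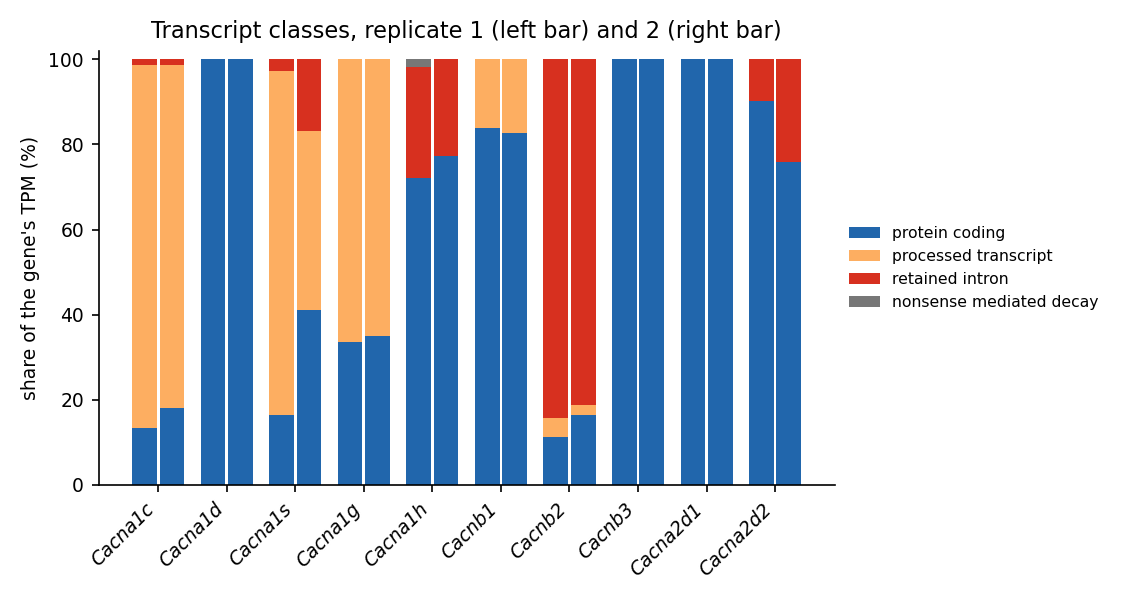
Share of each gene's TPM (vertical axis, percent) by annotated transcript class, replicate 1 left and replicate 2 right. Noncoding transcripts hold most of the TPM of Cacna1c, Cacna1s, Cacna1g and Cacnb2 in both libraries. Cacna1d, Cacnb3 and Cacna2d1 have only coding transcripts quantified.

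Of 16 other calcium channel subunit genes, 2 reached 1 TPM in each library, against 58.2% of all protein-coding genes. Cacng6, which encodes a gamma subunit, stood at 17.2 and 14.7 TPM (15.9 ± 1.77, n = 2), and both of its quantified transcripts are coding. Its level was above that of every one of the 10 genes over coding transcripts. Cacna1a, the P/Q-type pore of nerve endings, stood at 6.84 and 5.93 TPM, but its coding transcripts were at 0.45 and 0.46 TPM, 6.56% and 7.79% of the total. Cacna1i, the third T-type pore, had 0 counts in both libraries, which allows a level of up to 0.031 and 0.0348 TPM at the floor of 3 counts a library. The other 13 were below 1 TPM in at least one library.

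Of 24 genes for proteins that bind or regulate these channels, 20 reached 1 TPM in each library, against 58.2% of all protein-coding genes. The 24 were listed with earlier results of these data known, so the count is not a result about regulators. Among the 5 highest were Rrad at 214 TPM, a small GTPase that binds beta subunits and holds the channel down, Prkaca at 207 TPM, the kinase of beta-adrenergic signalling, and Sri at 180 TPM, which encodes sorcin. The 2 lowest were Stac3 at 0.70 TPM and Stac2 at 0.75 TPM, adaptors of the L-type channel. The SD of Rrad between libraries was 5.79 TPM and that of Prkaca 9.09 TPM.

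Between the libraries, 1 of the 10 genes was past 1.5-fold after TMM scaling (a scaling that assumes most genes do not differ), against 16.0% of the 17054 genes with at least 10 counts in each library. Of those genes 11.2% were higher and 4.76% lower in replicate 2. The 1 gene was Cacna1s, higher in replicate 2 with a log2 ratio of 1.51 and a counting interval of 0.54 to 2.59, on 12 and 36 counts. The other 9 had log2 ratios from -0.54 (Cacnb2) to 0.41 (Cacnb1), and the median of all 10 was -0.09 against -0.02 for all genes tested. Of the 10 ratios, 4 were above 0, against 47.9% of all genes tested. Scaling by total counts shifted every ratio by 0.17 and put Cacna1g and Cacna2d2 above 0 as well, and scaling by the spike-ins shifted every ratio by -0.83 and put Cacna1h, Cacnb1 and Cacnb3 below 0. The pools were each 1 sample, so these ratios have no replicate check. After TMM scaling Cacnb1, Cacnb3, Cacna1s and, slightly, Cacna1h were above 0, and the other members were below it. Markers were compared by TPM only. Those of neuron, thymus, lung and liver were mostly higher in replicate 2. So were 7 of 10 skeletal muscle markers, among them Actn3 (1.81 and 7.56 TPM) and Myog (0.82 and 1.63 TPM), whereas Acta1, Tnnt3 and Tnni2 were lower. Of 6 smooth muscle markers 4 were higher, among them Myh11 (3.83 and 10.6 TPM), whereas Cnn1 and Des were lower. The cardiomyocyte markers were lower in replicate 2 for 6 of 8. With 2 libraries, a shared direction does not link a gene to a tissue. The part of these tissues in the ratios was not tested.

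**Figure D5:**
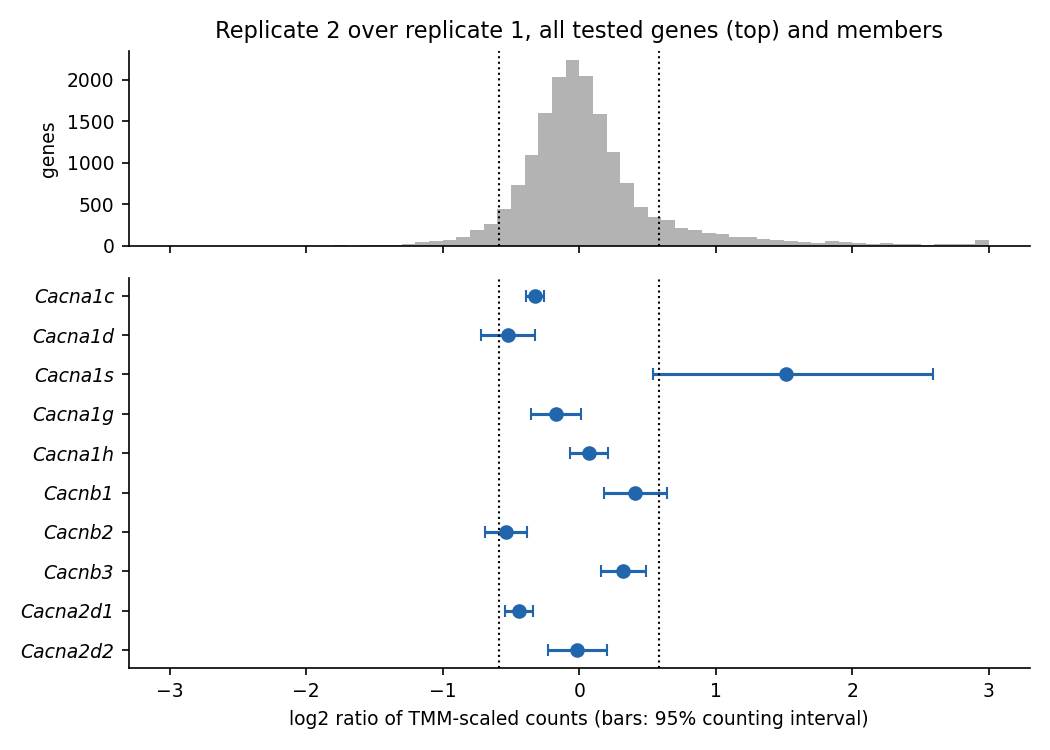
Log2 ratio of replicate 2 over replicate 1 on TMM-scaled counts for all 17054 genes tested (top, number of genes, with ratios beyond 3 placed in the end bins) and for the 10 subunit genes (bottom, bars are 95% counting intervals), with dotted lines at 1.5-fold. Of the 10 points, only that of Cacna1s lies past the lines.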

How the data were processed

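Total RNA-seq of mouse heart was taken from the deposited gene and transcript tables of 2 libraries. Quantification of both kinds of feature was on mm10 and GENCODE M4, per the file headers, with a tool not given in the sources used here. Expected counts were deposited as estimated reads, with reads that fit several transcripts shared out, and TPM as these counts per effective length over all features, spike-ins included. The deposited percent is a transcript's share of its gene's TPM, and deposited bounds on TPM are an interval whose level is not stated. The authors also deposited a posterior mean TPM.

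Genes were matched to GENCODE M21 (42462 of 43346 by identifier) for symbols, biotypes and positions. Levels are means ± SD over 2 libraries and ratios are log2 of TPM plus 0.1. Expected counts were rounded and scaled by TMM in edgeR 4.0.16 (R 4.3.3), with DESeq2 1.42.0 size factors as an alternative, and a library difference means past 1.5-fold over genes with at least 10 counts in each library. The scaling step was tested on simulated counts with as many genes raised as lowered. In these libraries more genes were higher than lower in replicate 2, so that test does not settle whether TMM holds here. Coding shares sum the deposited percent over protein-coding transcripts. Intervals on counts are exact 95% Poisson intervals, and those on library ratios are exact 95% binomial intervals on the split of counts between libraries. Like the floor of 3 counts, both cover counting error only. Pools differ in animals, so the SD is between pools. The genes named are all 10 members, the other subunit genes at 1 TPM or more in both libraries, regulators among the 5 highest and the 2 lowest (some of the 5 are not reported here), and the transcripts with a mean share of at least 10%. The members, gene lists and measures were chosen with earlier results of these data known. Strandedness of the counting was likewise not given in the sources used here.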

Additional observations from a re-analysis of the deposited data

How the results depend on the processing

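No paired analysis was possible because there is 1 group. On coding transcripts only, the log2 ratio of Cacnb2 to Cacnb1 turned from 0.66 to -1.87; Cacna1c to Cacna1d was 2.14, Cacna1c to Cacna1s 5.23, Cacna1g to Cacna1h -0.97, Cacnb2 to Cacnb3 -2.58 and L-type to T-type 0.73. From expected counts without length normalization, Cacna1c to Cacna1d was 3.16, Cacna1g to Cacna1h -0.77, Cacna2d1 to Cacna2d2 2.13 and L-type to T-type 1.64, and the coding share of Cacna1c was 69.3%. With a pseudocount of 0.01 or 1, Cacna1c to Cacna1d was 4.88 or 4.22, and with 1 Cacna1c to Cacna1s was 5.18. From posterior mean TPM, Cacna1g to Cacna1h was -0.09. With spike-in scaling, which shifted all ratios by -0.83, 8 of the 10 genes were past 1.5-fold. That shift alone is larger than 1.5-fold, so the 8 are not a result about these genes. With TMM scaling and at least 100 counts required in each library 0 were past it, since Cacna1s is left out. The share of all genes past 1.5-fold was not computed in either setting.

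Limits are the 2 pools of 1 group, transcript estimates that rest on shared exons, and 12 and 36 counts for Cacna1s. Depth limits the low genes, and Cacna1i, at 0 counts, was not detected. Without replicate 1, the ratios that were within their spread changed sign, Cacna1g to Cacna1h to -0.01 and Cacnb2 to Cacnb3 to -0.21. The number of genes with a coding share over 50% rose from 6 to 9 by expected counts, where no share over all genes was computed. The cause of these changes was not tested.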
